A study of Mus musculus with 2 samples.

Results

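Chromatin remodellers were examined as a group of 42 genes in the forebrain of the mouse embryo. They comprised 26 genes for subunits of the BAF (SWI/SNF) complexes, 9 CHD genes, 3 genes of the ISWI family, Ino80 and Ep400, and Hells and Atrx. Members were listed by name and not by a cut on a measured value, but earlier results of these data were known when they were chosen. Each was found by its gene identifier in both gene tables, so that all 42 were located among 42462 named mouse genes. The study sequenced total RNA in 2 libraries, taken from B6NCrl mouse forebrain at embryonic day 12.5. Replicate 1 was made from a pool of 120 embryos and replicate 2 from a pool of 68 embryos, each of mixed sex, and the labels name no treatment and no genetic change. Both pools form 1 group, so no comparison between conditions was possible. The 2 libraries were compared only with each other, and 2 values against 2 cannot go below p = 0.333 by an exact permutation test (two-sided), so levels are given for each pool without a test. The title of the series says that a later deposit replaces it, which was not used here.

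Remodellers of the SNF2 type use ATP to slide, evict or exchange nucleosomes. The BAF complex is assembled around 1 of a pair of ATPases, and several of its positions can be filled by alternative members of a small gene family. In the developing nervous system some of these positions are known to change hands as a progenitor leaves the cell cycle: Actl6a (BAF53a), Ss18 and Phf10 (BAF45a) are the members of dividing neural progenitors, and Actl6b (BAF53b), Ss18l1 (CREST), Dpf1 (BAF45b) and Dpf3 (BAF45c) those of neurons. CHD proteins carry paired chromodomains beside the motor, ISWI proteins space nucleosomes, INO80 and EP400 act on the histone variant H2A.Z, HELLS assists DNA methylation and ATRX deposits a histone H3 variant together with DAXX.

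The libraries held 33711030 and 34578499 expected counts, that is, reads assigned to genes by an estimate. Members had from 158 to 18566 of them in replicate 1 and from 155 to 17611 in replicate 2. The tissue label was met by the markers. All 4 telencephalon markers were detected, and 0 of 5 hindbrain Hox genes reached 1 TPM (a transcript level scaled for transcript length and library size), with Hoxb3 and Hoxa2 at 0 in both pools. Progenitor markers were all detected, with sums of 2675 and 2489 TPM in replicates 1 and 2, and so were the 7 neuron markers, at 1486 and 1394 TPM. The 5 erythroid markers summed to 6933 and 9182 TPM, the 5 mesenchyme markers to 567 and 677 TPM, the 4 endothelial markers to 89.8 and 93.9 TPM and the 4 microglia markers to 33.5 and 38.8 TPM. The pools thus held RNA of progenitors, neurons and non-neural cells, and in such bulk RNA fewer cells of a type and less RNA per cell cannot be told apart.

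Every member was expressed. All 42 reached 1 TPM in both pools, as did 34.5% of named genes and 60.0% of protein-coding genes. At 10 TPM in both pools, 38 of 42 members remained, against 21.5% of named genes and 40.7% of protein-coding genes. The 4 members below that line were Chd9 at 7.73 and 8.06 TPM, Dpf3 at 6.18 and 6.34 TPM, Chd5 at 5.57 and 6.09 TPM, and Ino80 at 4.29 and 3.68 TPM. The median member stood at 59.3 TPM, and the median of the 12880 protein-coding genes detected in both pools at 21.6 TPM. The 26 BAF genes summed to 2396 ± 45.3 TPM (SD, n = 2), the 9 CHD genes to 431 ± 7.50 TPM, the 3 ISWI-family genes to 193 ± 4.86 TPM, Hells and Atrx to 291 ± 5.00 TPM, and Ino80 and Ep400 to 60.6 ± 0.184 TPM. These sums cover different numbers of genes, and the median gene was at 67.0 TPM among the BAF genes and at 37.7 TPM among the CHD genes.

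**Figure D1:**
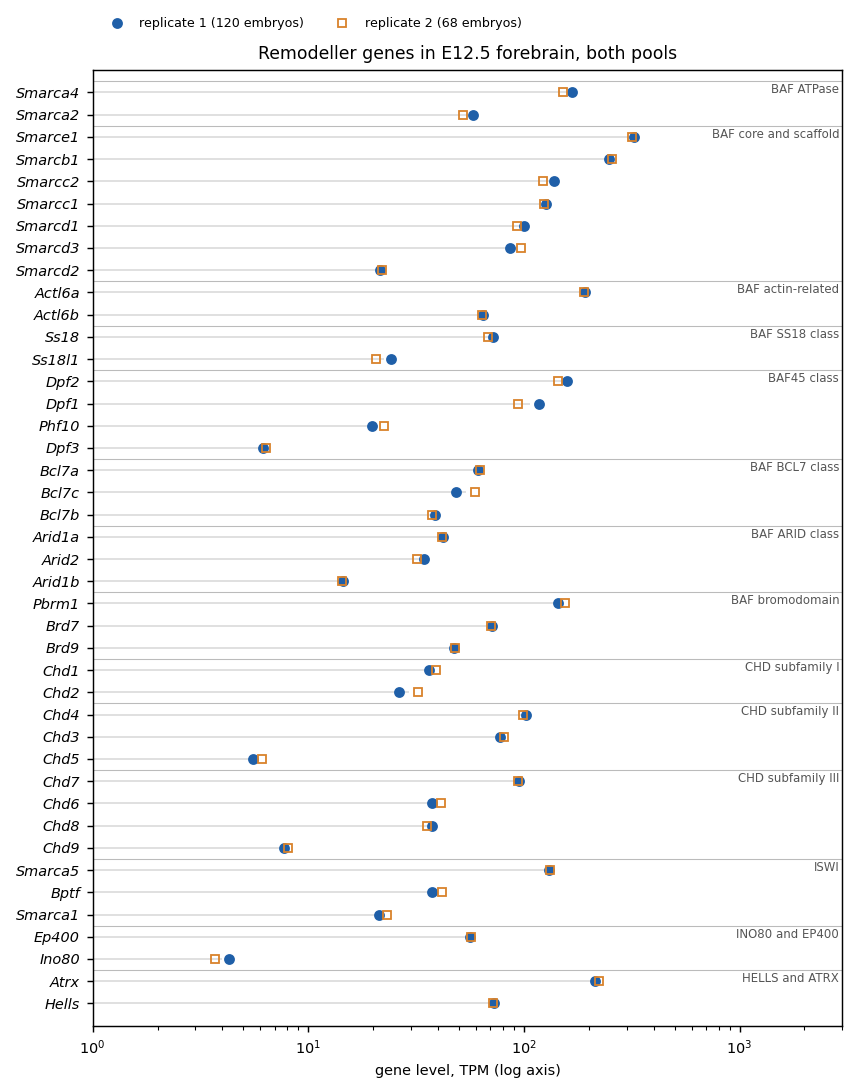
TPM of each of the 42 members in replicate 1 (filled circles) and replicate 2 (open squares) on a log axis, grouped by complex or family and sorted within it. Smarce1 is the highest at a mean of 320.4 TPM and Ino80 the lowest at 3.99 TPM, and the pools lie close together for nearly every gene.

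At the position of the actin-related subunit, the progenitor member Actl6a (chr3:32706298-32726973, GRCm38) was the higher of the pair. Actl6a stood at 191.49 and 190.40 TPM (values of replicate 1, then replicate 2, here and throughout). Its neuronal counterpart Actl6b (chr5:137553517-137569582) stood at 64.63 and 63.67 TPM. The pools did not overlap between the genes, and Actl6a was 2.96-fold higher in replicate 1 and 2.99-fold higher in replicate 2. Actl6b therefore made up 25.1 ± 0.123% of the summed TPM of the pair (SD, n = 2). How much of either RNA serves the BAF complex was not tested. Reads of Actl6a may include some of Mrpl47, a gene on the opposite strand at 32.2 TPM whose exons share 452 bases with it, because the sources used here do not state whether the counting used the strand.

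The SS18 position gave nearly the same ratio. Ss18, the progenitor member, was at 71.77 and 67.92 TPM. Ss18l1 (chr2:180042509-180070201), which encodes the calcium-responsive CREST protein, was at 24.20 and 20.64 TPM. Ss18 was 2.97-fold higher in replicate 1 and 3.29-fold higher in replicate 2, and the Ss18l1 share was 24.3 ± 1.35%. By the means of both pools, the neuronal member made up 25.1% and 24.3% of the summed TPM of its pair. No ordering between the positions is drawn, since the Ss18l1 share spanned 23.3% to 25.2%.

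The BAF45 position did not follow that pattern. Phf10 (chr17:14945009-14961273), the progenitor member and a subunit of the PBAF form, was at 19.68 and 22.54 TPM. Dpf1 (chr7:29303951-29318243), a neuronal member, was at 118.03 and 94.37 TPM. Here the neuronal gene was the higher, 5.03-fold by the means of both pools, the opposite direction from the pairs at the other switch positions. Because Phf10 is a subunit of the PBAF form, whether these genes serve the same complexes was not tested. Dpf3 (chr12:83213745-83487716), the other neuronal member, stood at 6.18 and 6.34 TPM, and Phf10 was 3.37-fold above it. Dpf2 (BAF45d, chr19:5896516-5913010), which is broadly expressed and belongs to no side of the switch, was the highest of the class at 157.71 and 143.75 TPM. Dpf1 and Dpf3 together made up 39.5 ± 2.45% of the class. Phf10 shares 470 exonic bases with 1600012H06Rik, an opposite-strand gene at 25.9 TPM, and some of its reads may come from that gene.

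Progenitor and neuronal markers were both abundant in these pools, and how far the BAF ratios follow the proportions of the cells was not tested. Across the pools, the sum of the neuron markers was lower in replicate 2, as was that of the progenitor markers, but not every marker was: Elavl3 was at 34.10 and 46.45 TPM and Stmn2 at 207.29 and 211.90 TPM, and Vim and Pax6 were also higher in replicate 2. Dpf1 and Ss18l1 were also lower in replicate 2, at log2 differences of -0.32 and -0.22, whereas Actl6b differed by -0.02 and Dpf3 by 0.03. With 1 pool on each side these differences have no replicate check.

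A list of 22 pairs of related genes, the 4 switch pairs included, was used to ask which paralog led. A pair counted as different where log2(TPM + 1) differed in the same direction in both pools and by more than either gene differed between the pools. The gene listed first was higher in 15 pairs and the second in 2, and 5 pairs did not meet the rule. The order within a pair was set when the list was written, with levels from these data known, so the 15 are a description and not a test.

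Of the RNA for the BAF motor, most was that of Smarca4, and which motor the complexes held was not tested. Smarca4 (BRG1, chr9:21616169-21704230) was at 166.78 and 151.82 TPM, and Smarca2 (BRM, chr19:26605050-26778322) was at 58.22 and 52.22 TPM. Smarca4 was 2.88-fold higher by gene totals, with no overlap between the genes. The gap widened when only transcripts that carry a complete coding sequence were counted, as described further on.

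Among the core and scaffold subunits were the highest members, and their levels ranged widely. Smarce1 (BAF57, an HMG-domain subunit) was the highest of all 42 at 324.50 and 316.23 TPM, followed by Smarcb1 (BAF47), the subunit lost in rhabdoid tumours, at 249.45 and 256.17 TPM. The paired scaffolds Smarcc1 (BAF155) at 126.90 and 123.35 TPM and Smarcc2 (BAF170) at 138.36 and 123.20 TPM were not separated: Smarcc2 was the higher in replicate 1, and the values were nearly equal in replicate 2. Among the BAF60 subunits, which link the complex to transcription factors, Smarcd1 at 99.96 and 92.61 TPM was 4.43-fold above Smarcd2 at 21.52 and 21.98 TPM. Smarcd1 and Smarcd3, the latter at 86.64 and 96.83 TPM, changed order between the pools. Smarcd3 shares 2466 exonic bases with Chpf2 on the opposite strand, which was at 12.3 TPM.

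Smarcb1 RNA came in a long and a short coding form in a steady proportion. Smarcb1-201 carried 73.66% and 73.27% of the gene's TPM in the respective pools, and Smarcb1-202 carried 25.10% and 24.92%. The forms differ by 27 coding bases at chr10:75916773-75916799 on the minus strand (GRCm38), which keeps the reading frame. They are shown because they are the whole coding difference between the forms, with the bases present only in Smarcb1-201 in capitals and 12 bases of shared coding sequence on each side in lower case, from GENCODE M21.
Smarcb1-201 segment: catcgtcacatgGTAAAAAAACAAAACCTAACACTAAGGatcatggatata

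The subunits that define the BAF forms ranged from Arid1b to Pbrm1. Arid1a (BAF250a, canonical BAF) was at 42.36 and 41.64 TPM, 2.91-fold above Arid1b (BAF250b) at 14.54 and 14.34 TPM. Arid2, the ARID subunit of PBAF, was at 34.27 and 31.93 TPM and Pbrm1, its polybromo subunit, at 143.63 and 154.49 TPM. Brd7, a PBAF bromodomain subunit, was at 71.38 and 70.40 TPM and Brd9, the bromodomain subunit of the non-canonical form, at 47.62 and 47.68 TPM, a difference that met the rule in gene totals but turned over in coding transcripts. In the BCL7 family, Bcl7a at 61.30 and 62.64 TPM was 1.62-fold above Bcl7b at 38.72 and 37.60 TPM, while Bcl7c at 48.47 and 59.44 TPM was too variable between pools to be separated from Bcl7a.

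Among the CHD genes, Chd4 was the highest by gene totals, followed by Chd7 and Chd3, and Chd5 was the lowest. Chd3, Chd4 and Chd5 encode the motors of the NuRD complex. Chd4 (Mi-2 beta, chr6:125095981-125130591) was at 101.89 and 98.82 TPM. Chd3 (Mi-2 alpha) was at 77.37 and 80.84 TPM, and Chd4 was 1.27-fold higher, a small difference that still exceeded the spread between pools. Chd5, which is known from maturing neurons, was at 5.57 and 6.09 TPM, 17.2-fold below Chd4 and 13.6-fold below Chd3. Most of the Chd5 value came from Chd5-204, a noncoding transcript of 280 bases that held 10.88 and 14.95 expected counts, so the level of Chd5 mRNA was lower than the gene total. The complete coding value of Chd5 rested mainly on Chd5-202 in replicate 1, at 1.70 TPM, and on Chd5-205 in replicate 2, at 0.90 TPM, each of them at 0 in the other pool.

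Both leading transcripts of Chd4 carry a complete coding sequence, and they shared the gene almost evenly. Chd4-203 held 44.53% of its TPM in replicate 1 and 39.42% in replicate 2, and Chd4-202 held 33.79% and 40.96%. Their order changed between the pools, so no preference can be stated. Chd4-202 has 2 in-frame coding segments that Chd4-203 lacks, of 21 bases at chr6:125100778-125100798 and of 39 bases at chr6:125102432-125102470, both on the plus strand. They are shown with the segment present only in Chd4-202 in capitals and shared sequence in lower case.
Chd4-202 segment 1: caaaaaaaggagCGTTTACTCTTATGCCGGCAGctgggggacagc
Chd4-202 segment 2: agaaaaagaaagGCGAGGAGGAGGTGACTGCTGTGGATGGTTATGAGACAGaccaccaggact

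In the remaining CHD genes the order depended on which transcripts were counted. Chd7, mutated in CHARGE syndrome, stood at 95.13 and 93.91 TPM. Chd8, a gene linked to autism, stood at 37.50 and 35.39 TPM, so Chd7 was 2.59-fold higher by gene totals. Chd6 at 37.41 and 41.20 TPM was not separated from Chd8, and Chd9 at 7.73 and 8.06 TPM was 4.62-fold below it. Chd1, which binds a histone H3 methyl mark of active promoters, was at 36.16 and 39.19 TPM and its relative Chd2 at 26.49 and 32.36 TPM, a difference that did not exceed the spread of Chd2. Chd2 shares 2628 exonic bases with 1810026B05Rik on the same strand, a noncoding gene at 41.9 TPM, so the reads of these genes cannot be told apart there.

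The ISWI motors were clearly separated. Smarca5 (SNF2H, chr8:80698507-80739497) was at 131.01 and 132.08 TPM and Smarca1 (SNF2L, chrX:47809368-47892974), which is enriched in neurons, at 21.25 and 23.07 TPM. Smarca5 was 5.94-fold higher by gene totals and 3.52-fold higher by complete coding transcripts. Bptf, the large subunit that guides NURF to modified histones, was at 37.69 and 41.68 TPM.

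Smarca1 was split between transcripts with different coding ends. Smarca1-203 held 46.96% and 45.12% of its TPM and Smarca1-202 held 34.21% and 32.62%, the same order in both pools. The deposited intervals of these forms overlapped in both pools. They were 7.47 to 11.29 and 6.08 to 8.10 TPM in replicate 1, and 7.94 to 11.35 and 6.44 to 8.29 TPM in replicate 2. The final coding bases of Smarca1-202 lie at chrX:47811134-47811157 and those of Smarca1-203 at chrX:47810049-47810120, both on the minus strand. They are shown because they replace each other: capitals mark the end used by that transcript only, including its stop codon, and lower case the shared bases before it.
Smarca1-202 coding end: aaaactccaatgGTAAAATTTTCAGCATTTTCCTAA
Smarca1-203 coding end: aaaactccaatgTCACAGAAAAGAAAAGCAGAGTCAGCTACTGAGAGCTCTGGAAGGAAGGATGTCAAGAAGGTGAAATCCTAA

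In the last families, Atrx (chrX:105797615-105929403) was at 214.82 and 222.54 TPM, the highest of all 17 ATPase genes by gene totals. Hells was at 72.53 and 71.88 TPM, Ep400 at 56.16 and 57.03 TPM, and Ino80 at 4.29 and 3.68 TPM was the lowest of the 42 members. The Ino80 value rested on 449 and 482 expected counts.

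**Figure D2:**
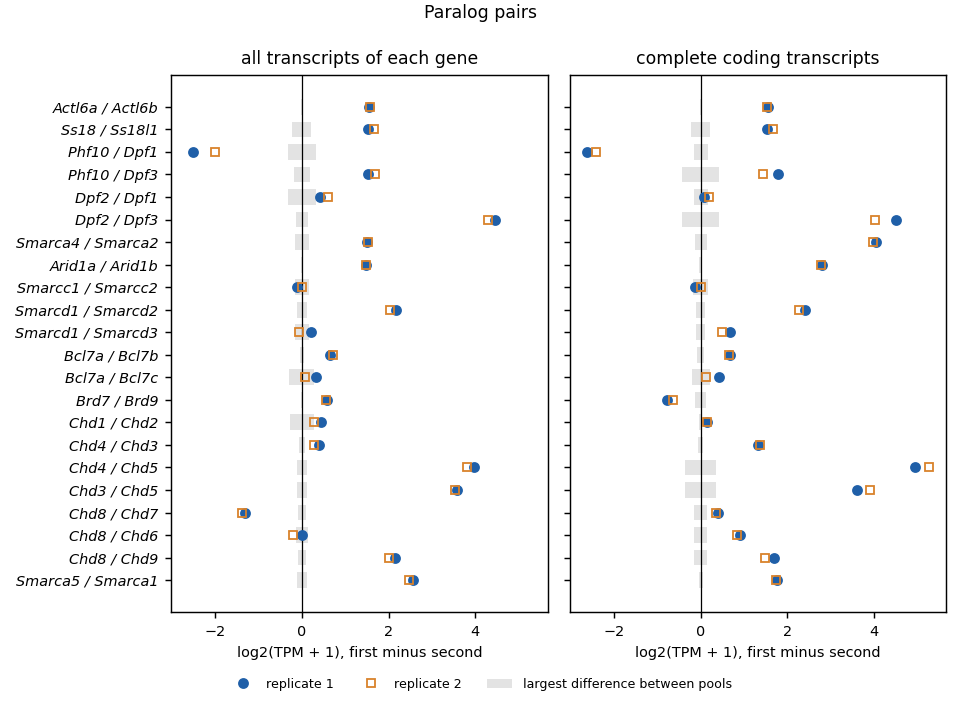
Difference in log2(TPM + 1) of the first minus the second gene of 22 pairs, in replicate 1 (filled circles) and replicate 2 (open squares), for all transcripts (left) and complete coding transcripts (right); grey bars span the largest difference of either gene between pools. Actl6a over Actl6b and Ss18 over Ss18l1 stay near 1.5 to 1.7 in both panels, while Brd7 over Brd9 and Chd8 over Chd7 change sign.

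The transcript tables divide each gene's level among its annotated transcripts, and for many members most of the level was not in transcripts that encode the whole protein. A complete coding transcript was taken as one annotated protein-coding, with both ends of the coding sequence annotated, and with a coding sequence of at least 80% of the gene's longest. This definition was chosen after the data had been seen. The complete coding share was under 50% in both pools for 17 of 42 members, against 15.4% of all detected protein-coding genes. Many member genes are long, so genes of a similar range of coding length were also counted, which narrowed the difference in length without removing it. Among genes whose longest coding sequence fell in the middle range of the members, 16.6% were under 50%, and among those at or above the members' median length, 27.9% were, against 12 of 21 members of that length. The median longest coding sequence was still 5859 bases in those members and 4362 bases in the genes beside them, and 3252 bases in all members against 2064 bases in the middle range. By role, 10 of 17 ATPases and 7 of 25 other members were under 50%. The median member held 70.1% of its TPM in complete coding transcripts, and the median gene of the background 92.7%.

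Members differed widely in this share. In 7 genes, Smarcc1, Smarcc2, Smarcd1, Ss18, Ss18l1, Brd9 and Chd9, complete coding transcripts held 100% of the level. The lowest were Atrx at 12.7 ± 0.459%, Smarca2 at 15.7 ± 0.610%, Chd7 at 20.6 ± 0.941% and Pbrm1 at 20.8 ± 1.17% (SD, n = 2). In Chd7, Pbrm1 and Atrx the rest lay mostly in coding transcripts that are annotated without an end or are short, which held 76.3%, 75.9% and 78.2% of the level. Noncoding types held more than 50% of the level in Chd5, Brd7, Dpf2, Phf10, Chd3 and Smarca5, from 75.9% of Chd5 to 50.3% of Smarca5. Decay-annotated and intron-retaining transcripts were counted among the noncoding types. The leading single transcript was protein-coding for 36 members, a processed transcript for 4, a retained intron for Chd3 and a nonsense-mediated decay transcript for Smarca2. It was complete coding for 29 of 42.

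**Figure D3:**
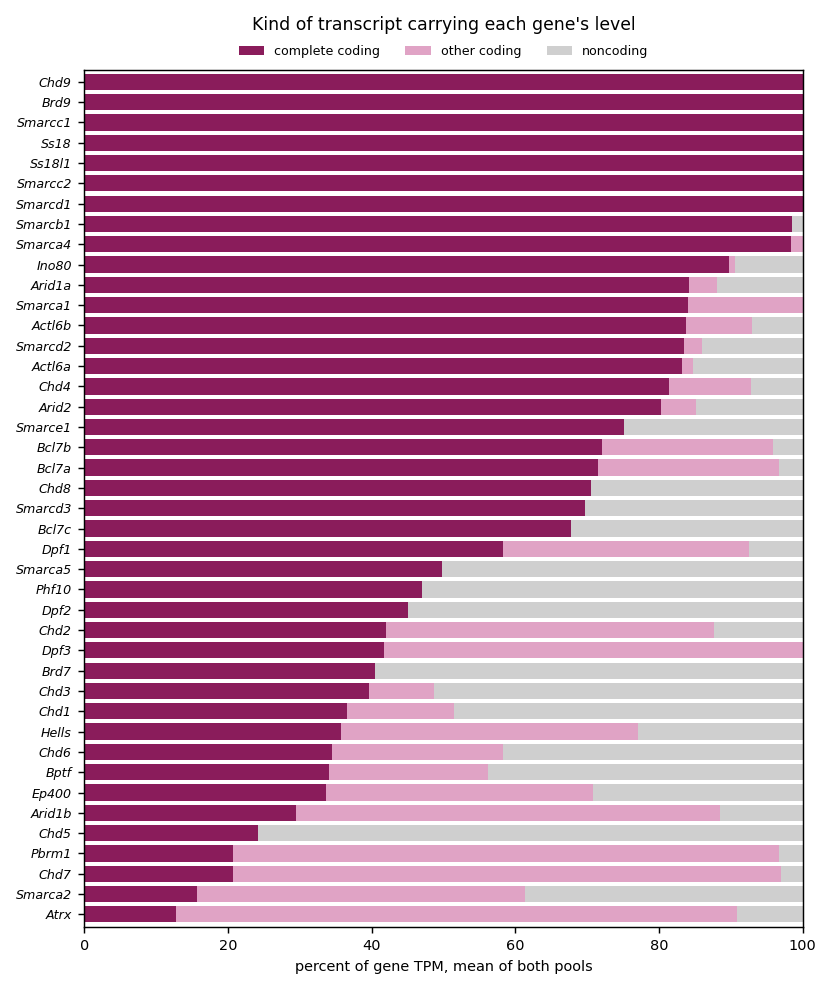
Percent of each member's TPM, as the mean of both pools, in complete coding transcripts, other coding transcripts (incomplete or short) and noncoding transcripts, sorted by the complete coding percent. Chd9 is at the top with 100% and Atrx at the bottom with 12.7%.

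Among members made up of several complete forms, most kept the same order of forms in both pools. In Smarca4, Smarca4-204 held 73.65% and 72.46% and Smarca4-202, with 4854 in place of 4842 coding bases, held 24.86% and 25.80%. In Smarcc2, Smarcc2-201 held 54.52% and 55.11%, Smarcc2-202 held 28.28% and 28.15%, and Smarcc2-203 held 17.20% and 16.74%, with coding sequences of 3300, 3393 and 3642 bases. Of the forms named, the one with the shortest coding sequence led in both genes. In Smarcd2, Smarcd2-201 held 60.02% and 54.24% and Smarcd2-203 held 23.93% and 28.94%. In Chd9, Chd9-201 held 67.04% and 51.81% and Chd9-202 held 32.96% and 48.19%, so the order held while the shares moved, in a gene whose total was near 7.90 TPM. In replicate 2 the deposited intervals of these Chd9 forms overlapped, at 2.55 to 5.96 and 1.93 to 5.31 TPM. Ss18-203 held 86.02% and 90.59% of Ss18, and Arid1a-205 held 80.94% and 82.34% of Arid1a.

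Dpf1, Dpf3, Bcl7a and Bcl7b also had part of their level in incomplete or short coding entries, while Phf10, Dpf2 and Bcl7c had none. In Dpf1, the complete Dpf1-201 was at 56.74 and 46.31 TPM, and Dpf1-209, an entry of 438 bases that lacks an annotated end, was at 27.16 and 16.32 TPM. Complete coding transcripts of Dpf1 were at 65.32 and 58.42 TPM in all, closer between the pools than the gene total of 118.03 and 94.37 TPM. In Bcl7a, Bcl7a-201 was at 45.54 and 43.03 TPM and Bcl7a-202, with 339 in place of 633 coding bases, was at 14.07 and 17.21 TPM. Dpf3 was spread over 5 entries at 5% or more of the gene, and its complete forms were at 2.08 and 3.14 TPM, a level that rested on 158 and 155 expected counts for the whole gene.

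Atrx showed how the split works. Its complete transcript Atrx-202, of 10269 bases, was at 27.97 and 27.53 TPM and held 13.02% and 12.37% of the gene's TPM. It held 5734 of the gene's 11202 expected counts in replicate 1 and 5875 of 11765 in replicate 2. Because TPM counts reads per base of transcript, shorter entries such as Atrx-207, of 720 bases with 414.8 and 550.8 counts, were at 33.14 and 42.27 TPM. In replicate 1, Hells-201 likewise held 2963 of 3565 expected counts of Hells but 35.14% of its TPM. Brd7-201 held 1950 of 2376 counts of Brd7 but 38.45% of its TPM. The share of reads in Smarca2-201 was near that in Atrx-202, at 1033 of 2187 counts. It was lower in Pbrm1-207, at 4662 of 10737 counts, and in Phf10-201, at 305 of 844. Whether the reads of short entries came from separate short RNAs or from the long ones was not tested.

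Counting only complete coding transcripts changed the order of the ATPases. Smarca4 was the highest at 164.30 and 149.16 TPM, followed by Chd4 at 82.15 and 81.11 TPM, Smarca5 at 66.43 and 64.41 TPM and Chd3 at 32.00 and 30.61 TPM. Atrx came next at 27.97 and 27.53 TPM, having led by gene totals. Hells at 25.49 and 26.13 TPM and Chd8 at 27.05 and 24.38 TPM overlapped, and Chd7 at 20.27 and 18.76 TPM, Ep400 at 19.53 and 18.61 TPM and Smarca1 at 18.77 and 18.45 TPM also overlapped. Chd1, at 13.90 and 13.62 TPM, and Chd6, at 13.84 and 13.27 TPM, were not separated either. Smarca2 fell to rank 14 of 17 at 8.90 and 8.43 TPM, and Chd5 was the last at 1.70 and 1.11 TPM. By families, complete coding transcripts summed to 1818 ± 40.0 TPM for the BAF genes (SD, n = 2), 207 ± 5.64 TPM for the CHD genes, 97.5 ± 1.20 TPM for the ISWI family, 53.6 ± 0.141 TPM for Hells and Atrx, and 22.6 ± 0.544 TPM for Ino80 and Ep400. The BAF genes thus kept 75.9% of their summed TPM, the CHD genes 48.1%, and Hells and Atrx 18.4%.

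**Figure D4:**
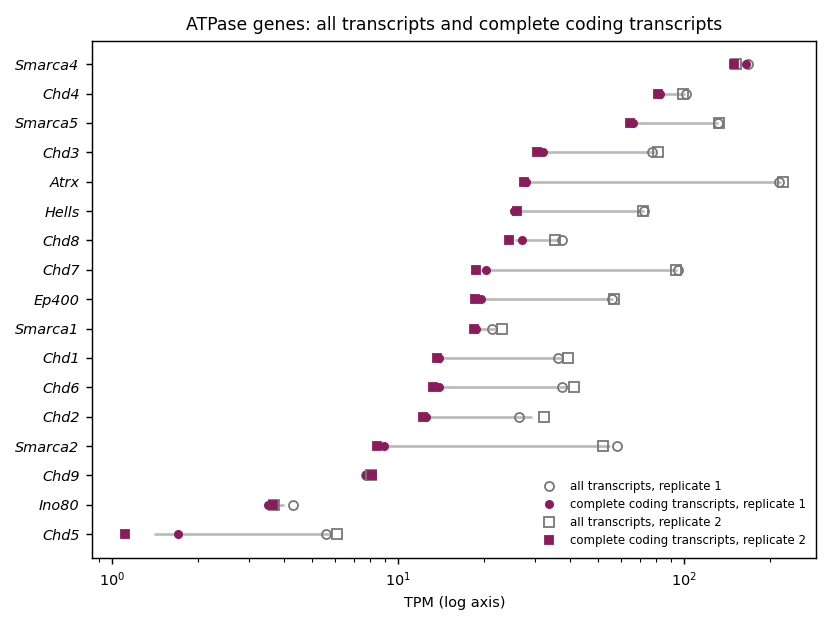
TPM of the 17 ATPase genes on a log axis, from all transcripts (open symbols) and complete coding transcripts (filled symbols) in replicate 1 (circles) and replicate 2 (squares); lines join the means. Smarca4 and Chd9 hardly move, while Atrx goes from a mean of 218.7 to 27.8 TPM and Smarca2 from 55.2 to 8.67 TPM.

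Several of the pairwise differences moved with this count. Smarca4 was 18.1-fold above Smarca2, against 2.88-fold by gene totals. Most of the Smarca2 TPM lay in shorter or decay-annotated forms such as Smarca2-215 at 17.90 and 16.07 TPM. By reads, the complete Smarca2-201 was above Smarca2-215, at 1033 and 491 expected counts in replicate 1. Chd4 was 2.61-fold above Chd3, against 1.27-fold. Arid1a was 8.31-fold above Arid1b, but that value depended on the 80% limit: Arid1b-203, with a coding sequence of 5289 bases and 59.0% of the gene, falls just below it.

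Some orders reversed, vanished or appeared. Brd9 was 1.66-fold above Brd7. Of the Brd7 total, Brd7-203, a noncoding transcript of 511 bases, held 42.12% and 41.68%. Chd8 was 1.32-fold above Chd7, where by gene totals Chd7 had been 2.59-fold above Chd8. Dpf2 and Dpf1, at 1.42-fold by gene totals, were no longer separated. Over all protein-coding transcripts Dpf1 was at 111.08 and 85.63 TPM and Dpf2 at 68.81 and 66.88 TPM, which did not meet the rule either. Of the pairs not separated by gene totals, Chd8 was 1.90-fold above Chd6, Smarcd1 was 1.51-fold above Smarcd3 and Chd1 was 1.11-fold above Chd2. Over all protein-coding transcripts Chd2 was instead above Chd1, by a log2 difference of -0.39 for Chd1 over Chd2. The switch pairs kept their order. Actl6a was 2.95-fold above Actl6b, Ss18 was 3.12-fold above Ss18l1, Dpf1 was 6.23-fold above Phf10, and Dpf1 and Dpf3 made up 45.3% of the BAF45 class.

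Between the pools the members hardly differed. Of 42, 0 differed by more than 25% on the TPM + 1 scale, against 12.9% of all genes at a mean of 1 TPM or more and 8.07% of genes within the members' range of TPM. The 0 depended on the scale, since Dpf1 lay just under the limit. The number was 1 with a pseudocount of 0.1 (Dpf1), 1 with TMM (Chd5) and 2 with complete coding transcripts. The largest differences of replicate 2 over replicate 1 were -0.32 for Dpf1, 0.29 for Bcl7c and 0.28 for Chd2, on the log2(TPM + 1) scale, which understates the change of low genes. The median was -0.01, against 0.01 over all genes. With expected counts scaled by TMM, Dpf1 differed by -0.24, Bcl7c by 0.098 and Chd2 by 0.0049, so the size for Bcl7c and Chd2 depended on the measure. For 11 of 42 the sign differed when expected counts scaled by TMM were used in place of TPM. Chd5 went from 0.11 to -0.32 and Ino80 from -0.18 to 0.03. The direction for those genes is therefore not established.

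Genes for the partners of these motors, and other ATPases of the SNF2 type, were also all expressed. All 66 genes in these 7 lists were at 1 TPM or more in each pool, and their median was 38.1 TPM. Of named genes 34.5% were at that level, and of protein-coding genes 60.0%. In the NuRD list the highest was the deacetylase gene Hdac2 at 387.47 and 370.88 TPM and the lowest the methyl-CpG binding gene Mbd2 at 5.46 and 6.72 TPM. The ISWI partners ranged from the histone chaperone gene Rbbp4 at 469.67 and 431.53 TPM to Cecr2 at 9.35 and 9.97 TPM. The INO80 partners ranged from Mcrs1 at 146.92 and 142.82 TPM to Ino80d at 10.10 and 9.00 TPM, all above Ino80 itself. In the SRCAP and TIP60 list, Morf4l1 was at 466.74 and 455.48 TPM and Epc2 at 12.52 and 12.34 TPM. Of the HELLS and ATRX partners, Cdca7, which works with HELLS, was at 207.35 and 188.43 TPM and Cdca7l at 30.69 and 34.07 TPM. The other SWI/SNF list ran from Actb, the actin subunit gene that is also the cytoskeletal one, at 5591.04 and 5419.19 TPM, to Bicral at 4.60 and 4.34 TPM. The other SNF2-type ATPases had a median of 17.2 TPM, with the DNA repair gene Rad54l highest at 50.53 and 52.08 TPM and Ercc6 lowest at 8.20 and 8.80 TPM.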

How the data were processed

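The authors' deposited gene and transcript tables give expected counts (estimated reads per feature), TPM and, for transcripts, the percent of the gene, for total RNA of 2 pools. Per the labels, 10 ng of RNA larger than 200 bases entered each library; per the text deposited with the tables, mm10 and GENCODE M4 were used. The aligner was not given in the sources used here, nor was the quantifier. Deposited posterior mean TPM was an alternative. Names, types and coding sequences came from GENCODE M21 (GRCm38) by identifier: 281 of the members' 283 transcripts matched and 242 had the same length. Of 149 coding transcripts, 52 lacked an annotated end; of 81 complete ones, 15 had another length in the tables. In 12 of 42 members expected counts were not whole, so some of their reads were divided among genes. Exons of 10 of 42 members overlapped those of another gene at 1 TPM or more, and not all of these are named above. Smarcc1, for example, shares 123 bases with Dhx30, an opposite-strand gene at 78.9 TPM. The deposited intervals cover read assignment and counting only, not differences between animals.

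Members, pairs and lists were chosen with earlier results of these data known. Every member is named; from each partner list, the highest and lowest gene. Detection was 1 TPM in both pools and the pseudocount was 1. Nothing in the sources says more than that the pools are separate, so an SD measures the spread between them. Counts were rounded for edgeR 4.0.16 TMM and DESeq2 1.42.0 size factors. Other steps used Python 3.11.15, numpy 2.4.6, pandas 2.3.3, matplotlib 3.10.9 and R 4.3.3. Only the ratio between pools and the pair rule were tried on simulated gene counts, and the transcript steps were not. Alternatives were posterior mean TPM, TPM over named genes, coding transcripts only, CPM, other pseudocounts and thresholds, and each pool alone; the complete coding transcripts were added after the data were seen. Protein sequences were not used here.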

Additional observations from a re-analysis of the deposited data

How the results depend on the processing

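Levels rest on 2 pools and on how reads were assigned among transcripts. Over 22 pairs and the alternatives that use both pools, 146 pair values kept their direction and call, 13 gained a call and 2 lost it. In 15 the mean difference changed sign: 7 were called in both directions, 6 were called only in the alternative, 1 only as reported and 1 in neither. Brd7 over Brd9 became -0.71 with protein-coding and with complete coding transcripts (limits of 80%, 50% and 90%). Chd8 over Chd7 became 0.38 at those 3 limits. Dpf2 over Dpf1 became -0.52 with protein-coding transcripts, which did not meet the rule. Of pairs not separated as reported, Chd1 over Chd2 became -0.39 with protein-coding transcripts, Smarcc1 over Smarcc2 became 0.22 with CPM, and Chd8 over Chd6 became 0.16 with protein-coding transcripts, 0.18 with CPM and 0.87 at the 3 limits. In single pools, where the rule cannot be applied, Smarcc1 over Smarcc2 was -0.12 to 0.0017, Smarcd1 over Smarcd3 -0.064 to 0.20 and Chd8 over Chd6 -0.21 to 0.0034. The second gene was higher in 4 pairs with protein-coding transcripts. Pairs that did not meet the rule numbered 3 with protein-coding transcripts, 0 with CPM (not per length), and 3, 2 and 2 at the 80%, 50% and 90% limits. The Actl6b share was 26.9% with protein-coding and 25.3% with complete coding transcripts. The share of Dpf1 and Dpf3 was 57.2% with protein-coding transcripts, 45.3% at the 80% and 50% limits and 44.3% at 90%. The members' median TPM was 58.2 by posterior mean, 65.2 over named genes, 39.3 with protein-coding transcripts, 28.2 at 80% and 90%, and 29.6 at 50%. Members that differed by more than 25% between pools numbered 1 with TMM and 1 with DESeq2 size factors (Chd5), 1 with pseudocount 0.1 (Dpf1) and 2 with complete coding transcripts (Dpf3 and Chd5). In single pools the median TPM was 59.8 to 61.0, the Actl6b share 25.1% to 25.2%, the Ss18l1 share 23.3% to 25.2%, the Dpf1 and Dpf3 share 37.7% to 41.2%, the median coding percent 88.6% to 89.4%, detected members 42 to 42, and members under 50% complete 17 to 18. Of the class sums, 71 moved by more than 1 SD and 41 did not. No paired analysis was possible because both pools belong to 1 group.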
